A study of Rattus norvegicus with 71 samples.

Results

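Cytosolic ribosomal protein genes were followed across arteries of 2 rat strains at 3 ages. Members were all genes whose single symbol on the array's gene table was Rpl or Rps followed by a digit, or Rplp0, Rplp1, Rplp2 or Rpsa, without the Rps6k kinases, each read by its probe set of highest mean signal. The rule found 50 genes, carried by 57 of the 31042 probe sets that are not controls. Rplp1 and Rplp2 had no probe set of their own. Of 77 canonical ribosomal protein genes, 42 were members: 13 of 31 of the small subunit and 29 of 46 of the large subunit. A further 27 were seen only by probe sets that name several genes, and 8 had no probe set that names them here. The other 8 members were paralogs and pseudogenes.

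Total RNA had been hybridised to 71 Affymetrix rat arrays, 1 sample each, in 12 groups of 6 arrays (5 in 1 group). The rats were Brown Norway (BN), an inbred strain, or Fischer344 x Brown Norway (FBN), a cross of it with the Fischer strain, aged 6, 15 or 24 months. The vessels were aorta, labelled thoracic artery, and mesenteric artery, which feeds the gut. The labels cite a collateral artery model made by arterial occlusion for every sample, without saying which vessels came from it, and give no treatment groups. They do not say whether an array is 1 animal, so p-values measure only the spread between arrays.

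Each ribosome is built from the products of these genes and ribosomal RNA, as a small subunit that reads the message and a large subunit that joins the amino acids. Most of the messages begin with a 5′ terminal oligopyrimidine (TOP) stretch, through which growth signals passing the mTOR kinase and the RNA-binding protein Larp1 set their translation and stability together. In arteries, protein synthesis of smooth muscle rises during wall growth and repair. The array reads message abundance, not translation.

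Sequence around the annotated start was available for 43 of the 50 members in RefSeq's promoter table (rat build GRCr8). The windows below run from 30 bases before to 20 bases from the start, on the gene's strand. They are shown for 8 members, picked as examples from those called. These differed between strains in aorta (Rplp0, Rpl12), with age (Rpl5, Rpl4, Rps24) or between strains in mesenteric artery at 6 months (Rpl14, Rpl21, Rpl24). Capitals mark the letters CTTTC, a run of pyrimidines, wherever they stand in the window.
Rplp0, chr12:46718371-46718420, minus strand: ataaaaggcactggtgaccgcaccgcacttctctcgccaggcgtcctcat
Rpl12, chr3:36661910-36661959, plus strand: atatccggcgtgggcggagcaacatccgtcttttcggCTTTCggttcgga
Rpl5, chr14:1995206-1995255, minus strand: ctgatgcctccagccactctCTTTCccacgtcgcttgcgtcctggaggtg
Rpl4, chr8:73566447-73566496, plus strand: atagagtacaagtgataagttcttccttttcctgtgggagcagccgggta
Rps24, chr16:96487-96536, plus strand: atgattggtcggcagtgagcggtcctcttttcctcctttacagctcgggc
Rpl14, chr8:129163590-129163639, plus strand: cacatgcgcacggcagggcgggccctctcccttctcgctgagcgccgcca
Rpl21, chr12:13386134-13386183, minus strand: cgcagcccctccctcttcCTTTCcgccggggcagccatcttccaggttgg
Rpl24, chr11:58128386-58128435, minus strand: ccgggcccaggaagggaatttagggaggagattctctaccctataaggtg

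CTTTC stood in the window of 19 of the 43 members (44.2%), always on the gene's strand, against 6.45% of all 33469 windows on the gene's strand and 12.4% on either strand (CTTTC or GAAAG). It was present in Rpl12, Rpl5 and Rpl21 and not in the other 5 windows shown. Its first base was at 8 from the start in Rpl12, and before the annotated start in Rpl5 (-10) and Rpl21 (-12). None of these CTTTC runs begins at the annotated start, where a TOP stretch would begin. Other pyrimidine runs are not marked. In Rplp0, Rpl12, Rpl4, Rps24 and Rpl14 the annotated start lies within such a run, so the marked letters do not show whether a TOP stretch is present. Members with and without these letters are found in each of the 3 sets of genes, and the letters describe the annotated window only.

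Members were among the brightest features of the array. The signal is the MAS5 intensity, scaled by the submitters to the same trimmed mean in every array, and probe sets of different genes are not compared as levels because each has its own affinity. In 38 members the mean log2 signal was 14.17 or more, and all 38 lay within the top 1% (310 probe sets) by mean signal. The brightest was Rps29 at 15.90, followed by Rpl26 at 15.65 and Rps3a at 15.47. The next member below them was Rpl7l1, a nucleolar paralog of Rpl7, at 11.61. Besides the 38, the filter on low signal passed 4 dim members: Rpl7l1, the pseudogene Rpl37-ps2, Rpl39 and Rps27l, a paralog of Rps27 known as a p53 target. The other 8 (Rpl26l1, Rpl28, Rpl30, Rpl39l1, Rpl3l, Rps13, Rps4x-ps1 and Rps4y2) were not tested, so counts below are of 42. Messages of processed pseudogenes, of which this family has many, may be read by the same probes.

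The mean log2 signal of the 38 bright members ordered the groups by strain in aorta. In BN aorta it was 14.74 ± 0.07 (SD, n = 6) at 6 months, 14.83 ± 0.12 (n = 5) at 15 months and 14.86 ± 0.08 (n = 6) at 24 months. In FBN aorta it was 14.98 ± 0.12, 14.99 ± 0.10 and 15.20 ± 0.11 (n = 6 each). Neighbouring ages overlapped in both strains, while each FBN mean lay above the BN mean of its age. As deposited, arrays of the strains overlapped at 6 and 15 months and not at 24 months. After quantile normalization they also overlapped at 24 months, at 14.47 to 14.90 in BN and 14.65 to 15.17 in FBN. In mesenteric artery BN was at 14.83 ± 0.11 and 14.93 ± 0.03 at 6 and 15 months, and FBN at 14.70 ± 0.08 and 14.94 ± 0.08. The 24-month mesenteric groups stood at 14.97 ± 0.13 (labelled BN) and 15.04 ± 0.13 (labelled FBN).

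**Figure D1:**
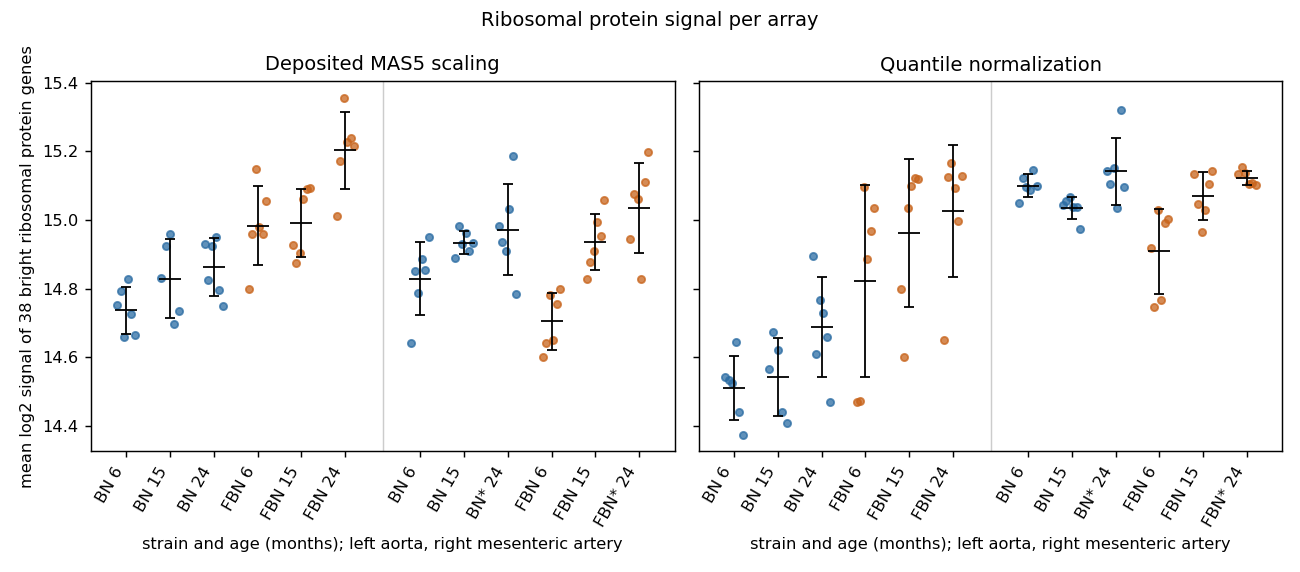
Mean log2 signal of the 38 bright members in each of 71 arrays (points; BN blue, FBN orange), by group, with group mean and SD (bars), as deposited (left panel) and after quantile normalization of all arrays (right panel). The 24-month mesenteric groups, marked with an asterisk, carry strain names as labelled. The FBN aorta means lie above the BN aorta means of the same age under both scalings. At 24 months the aorta arrays of the strains are separate as deposited and overlap after quantile normalization. After quantile normalization the mesenteric means run from 14.91 to 15.14 and those of BN aorta from 14.51 to 14.69.

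Some facts of the series touch these values. Probe sets whose BN and FBN signals were at least 0.5 log2 apart in all 6- and 15-month aorta arrays (29 higher and 3 lower in FBN, none a member) gave the 24-month mesenteric arrays scores on the other strain's side: 2.38 ± 0.22 (SD, n = 6) in those labelled BN against -0.77 ± 0.50 and -0.57 ± 0.54 in BN at 6 and 15 months, and -1.02 ± 0.42 in those labelled FBN against 1.76 ± 0.45 and 2.24 ± 0.53 in FBN at 6 and 15 months. Strain names of these 12 arrays are therefore given as labels, and ages in mesenteric artery are compared over the mean of both strains, which an exchange does not alter. Some brown fat markers were high in aorta. Ucp1, the defining uncoupling protein of that tissue, averaged a signal of 75500 ± 25600 (SD, n = 35) in aorta and 46.8 ± 38.7 (n = 36) in mesenteric artery. Others of the list were not: Cox7a1 averaged 362 in aorta and 254 in mesenteric artery. Elovl3 averaged 48.4 in aorta and did not pass the filter on low signal. The 8 smooth muscle markers passed the filter on low signal, with Myh11, the contractile myosin, at 41100 ± 12200 in aorta and 55500 ± 8920 in mesenteric artery.

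Many ribosomal protein genes gave a higher signal in aorta of FBN than of BN rats. At 6 months 20 of 42 members were higher in FBN and 0 lower, against 7.72% of all 16717 tested probe sets called higher and 8.93% lower. The median member difference was 0.25 on the log2 scale, against 0.01 over all tested. At 24 months 29 were higher and 0 lower (background 7.14% and 7.98%), with a median of 0.33 against 0.02. At 15 months 8 were higher and 1 lower (background 10.1% and 11.4%), with a median of 0.16 against 0.07. The age dependence of the strain difference between 6 and 24 months was tested for each member and called for 0 of 42 (background 0.012% higher and 0.0179% lower).

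Rplp0, which forms the base of the stalk that recruits translation factors, differed at all 3 ages. At 6 months its signal in BN aorta was 22980 at the lowest, 23900 at the median and 28070 at the highest of 6 arrays, and in FBN aorta 26960, 32790 and 37550. At 24 months the values were 25100, 26750 and 30630 in BN and 35320, 37650 and 41840 in FBN. The groups overlapped by 1 BN array at 6 months and did not overlap at 24 months. Rplp0 was 1.33-fold higher at 6 months (log2 0.42 ± 0.08 SE, adjusted p = 0.00135) and 1.39-fold higher at 24 months (0.48 ± 0.08, adjusted p = 0.000404).

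Rpl18, a large subunit protein, ran from 20990 through a median of 22540 to 23630 in BN aorta at 6 months and from 24700 through 30430 to 31600 in FBN. No FBN array fell within the BN range, and the difference was 0.38 ± 0.07 (adjusted p = 0.000634). Rpl12, which lies beside the stalk, was also called at all 3 ages, as were Rps3 and Rps24. Its 6-month signals were 19430, 21360 and 23130 (lowest, median, highest) in BN and 23900, 28760 and 29520 in FBN, again without overlap. The difference of Rpl12 was 0.38 ± 0.10 at 6 months, 0.44 ± 0.10 at 15 months and 0.45 ± 0.10 at 24 months (adjusted p = 0.00935, 0.00492 and 0.00364).

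Among small subunit proteins, Rps3, at the entry of the message channel, was 0.43 ± 0.11 higher at 6 months and 0.50 ± 0.11 at 24 months. Rps23, of the decoding centre, showed the largest called difference at 15 and 24 months (0.53 ± 0.18 and 0.56 ± 0.17), with the widest standard error of the bright members. Rps28 and Rps16 were called at 15 months (0.44 ± 0.12 and 0.39 ± 0.13), as was Rpl35 of the large subunit (0.42 ± 0.12). Rpl13a and Rpl41, the smallest ribosomal protein, were among the largest differences at 24 months, at 0.485 ± 0.114 and 0.485 ± 0.105. At 6 months Rpl27a was 0.42 ± 0.10 higher and the paralog Rpl7l1 0.37 ± 0.11. At 24 months the second probe set of Rpl7l1 was at -0.18 ± 0.14 and the first at 0.265 ± 0.11, neither called.

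Rps3a, a small subunit protein, went the other way at 15 months. The 5 BN arrays read 56160, 57310, 58940, 52190 and 54140, and the 6 FBN arrays ran from 39290 through 44270 to 48580. The groups did not overlap, and the difference was -0.34 ± 0.09 (adjusted p = 0.0132). After quantile normalization it was -0.02 (adjusted p = 0.878) and no longer called. Centred on the mean of the bright members, it stood at -0.50 (adjusted p = 0.00424), and Rps29 at -0.36 (adjusted p = 0.0216).

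**Figure D2:**
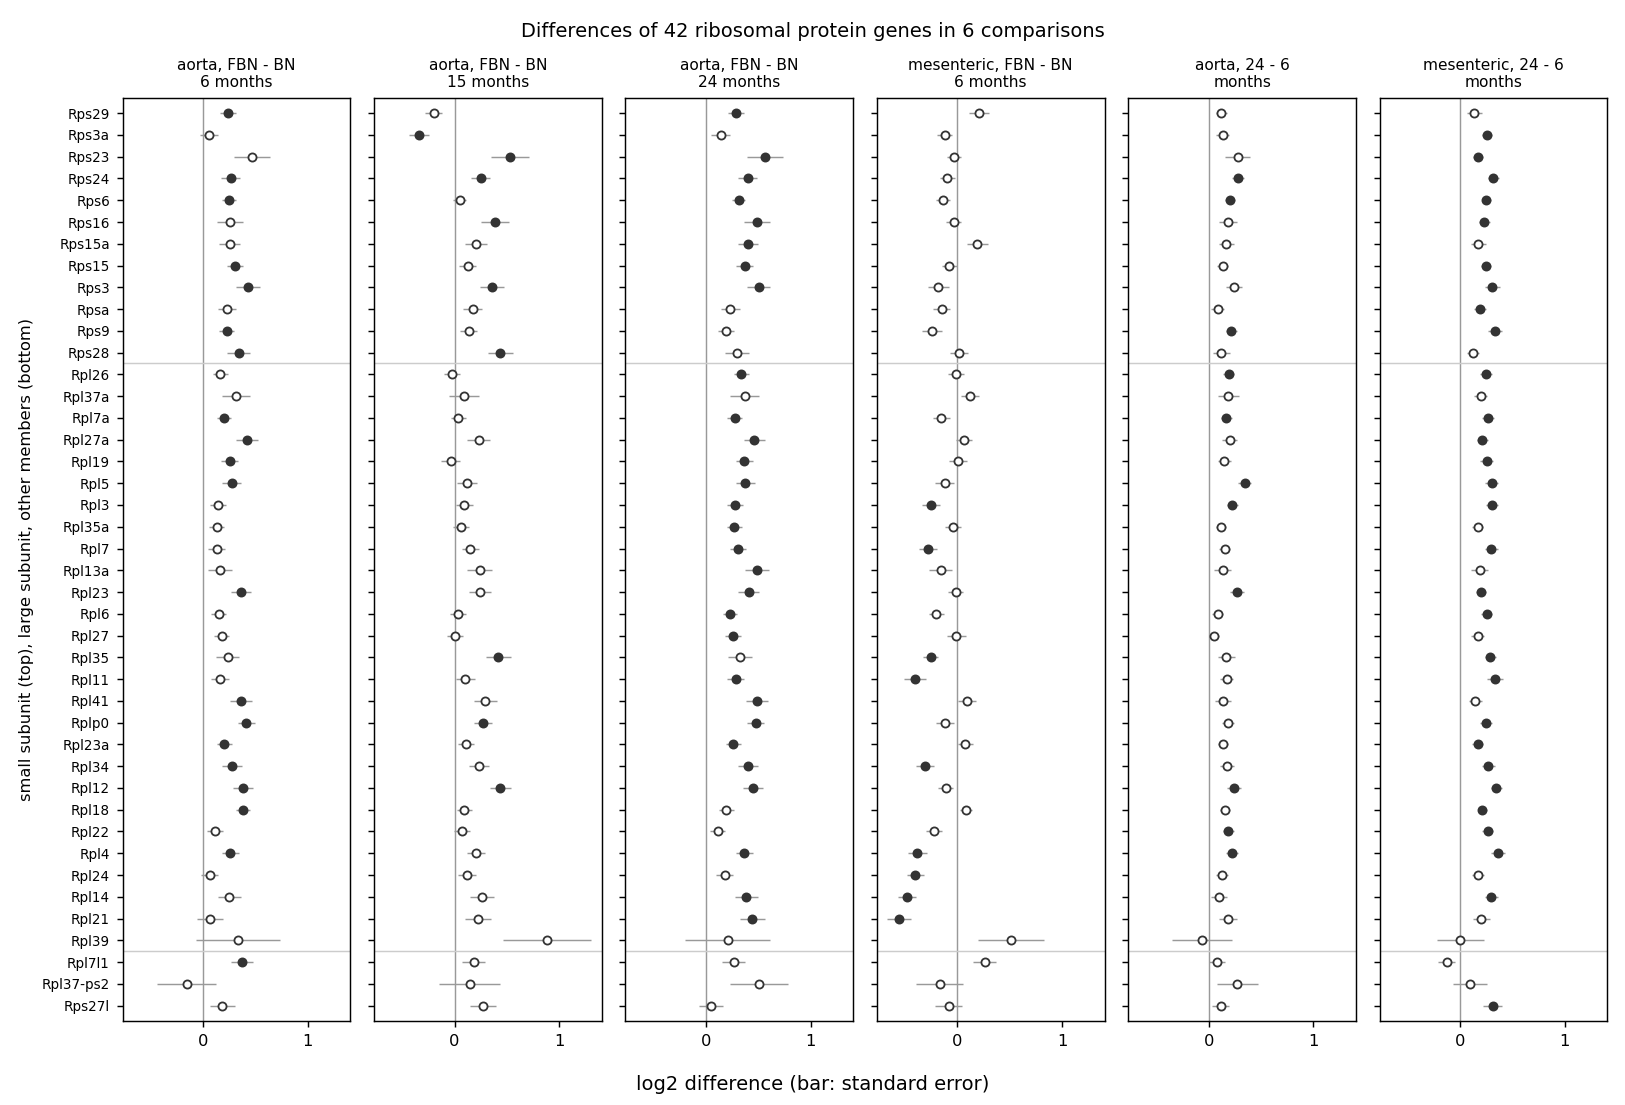
Log2 difference of each of the 42 tested members (rows) in 6 comparisons, with standard error; filled points were called at an adjusted p of 0.05. In aorta 41, 38 and 42 of the 42 strain estimates lie right of 0 at 6, 15 and 24 months. In the mesenteric strain panel the 9 called members are all left of 0.

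The scaling changed how many members passed in aorta. After quantile normalization 15 were higher in FBN at 6 months (background 7.89% higher and 9.25% lower), 31 at 15 months (10.2% and 12.1%) and 15 at 24 months (7.15% and 7.82%), with 0 lower at each age. The 29 tested probe sets that name several ribosomal protein genes, which share no feature with the members, were higher in 12, 7 and 23 cases at the 3 ages and lower in 0.

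Other measures moved with strain in the same arrays. The summed signal of the 8 brown adipocyte markers ranged from 195700 to 255500 in BN aorta at 6 months and from 86750 to 339600 in FBN (0 of 7 tested markers called, median -0.65). At 15 months it ranged from 223200 to 275800 in BN and from 59720 to 261400 in FBN (4 of 7 called lower), and at 24 months from 186800 to 265400 and from 83550 to 305200 (0 of 7). That of the 8 smooth muscle markers ranged at 6 months from 65720 to 138300 in BN and from 57510 to 230400 in FBN (1 of 8 called higher, all 8 estimates above 0, median 0.73). The 6 tested general adipocyte markers had 0 estimates above 0 at each age, with 1, 5 and 0 called lower and medians of -0.678, -1 and -0.658. Tissue mass was 25.9 ± 3.51 mg in BN and 18.6 ± 8.92 mg in FBN at 6 months (n = 6 each). Fewer cells of a type and less RNA per cell cannot be told apart in whole vessels. With the brown adipocyte level as a covariate, 10, 1 and 26 members were higher at 6, 15 and 24 months, and with tissue mass 12, 1 and 27. No share of all tested probe sets is given for these covariate fits, so a lower count may not be particular to the members.

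The mean signal of the poly-A RNA controls added to the samples lay higher in FBN at 6 and 24 months and lower at 15 months. On the log2 scale it was 8.99 ± 0.18 in BN and 9.71 ± 0.32 in FBN at 6 months, 9.57 ± 0.10 and 9.37 ± 0.20 at 15 months, and 8.85 ± 0.09 and 10.05 ± 0.85 at 24 months. With it as a covariate, 2 members were higher at 6 months, 15 higher and 2 lower at 15 months, and 0 higher at 24 months. The share of all tested probe sets under this fit is not given either. Of the FBN aorta samples at 6 months, 2 singled out after their values were seen were the heaviest (28.9 and 27.7 mg), with brown adipocyte levels of 12.02 and 12.86 on the mean log2 scale, and their quantile-normalized member levels were 14.47 in each, against 14.89 to 15.10 in the other 4. The heaviest, replicate 1, also had a mean log2 signal of the 10 striated muscle markers of 12.6, against 7.56 to 8.47 in the other 5 arrays, and the lowest member level of its group as deposited (14.80). In BN aorta at 15 months, replicate 4 had a striated muscle level of 11.14 against 7.59 to 8.37 in the others, and again the lowest member level (14.70). Without the former array 28 members were higher in FBN at 6 months, and without the latter 2 at 15 months. The part of these measures in the strain difference was not tested beyond these fits.

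Mitochondrial ribosomal proteins, which build the separate ribosome of that organelle, were called in the other direction. The shares of all tested probe sets called higher, given above, were 7.72%, 10.1% and 7.14% at the 3 ages, and those called lower 8.93%, 11.4% and 7.98%. Of 73 mitochondrial ribosomal proteins tested, 11 were lower and 0 higher in FBN aorta at 6 months, 40 lower and 1 higher at 15 months, and 9 lower and 0 higher at 24 months, with medians of -0.51, -0.70 and -0.55. Mrps35 was at -1.12 ± 0.30, -1.12 ± 0.31 and -1.05 ± 0.30 at the 3 ages. Other translation genes with TOP messages (13 tested) were higher in 3, 4 and 6 cases and lower in 0, among them Eef2, the translocation factor, at 0.28 ± 0.07 at 6 months, Eef1g at 0.57 ± 0.14 at 15 months and Eif4b at 0.45 ± 0.11 at 24 months. After quantile normalization 2, 7 and 4 of them were higher. Of 27 ribosome biogenesis genes 3, 9 and 3 were higher and 0, 0 and 1 lower, including Nolc1 (0.57 ± 0.11) and Nop56 (0.56 ± 0.14) at 15 months. The 3 called at 6 and at 24 months are near the share of all probe sets. Of 14 genes of mTOR and TOP control 1, 0 and 1 were higher and 1, 4 and 1 lower. The 1 called in each direction at 6 and at 24 months is near the share of all probe sets. Larp1 was higher at 6 months (0.70 ± 0.14) and the mTOR inhibitor Deptor lower (-1.10 ± 0.21), while Eif4ebp1, a translation repressor, was lower at 15 months (-0.999 ± 0.26).

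**Figure D3:**
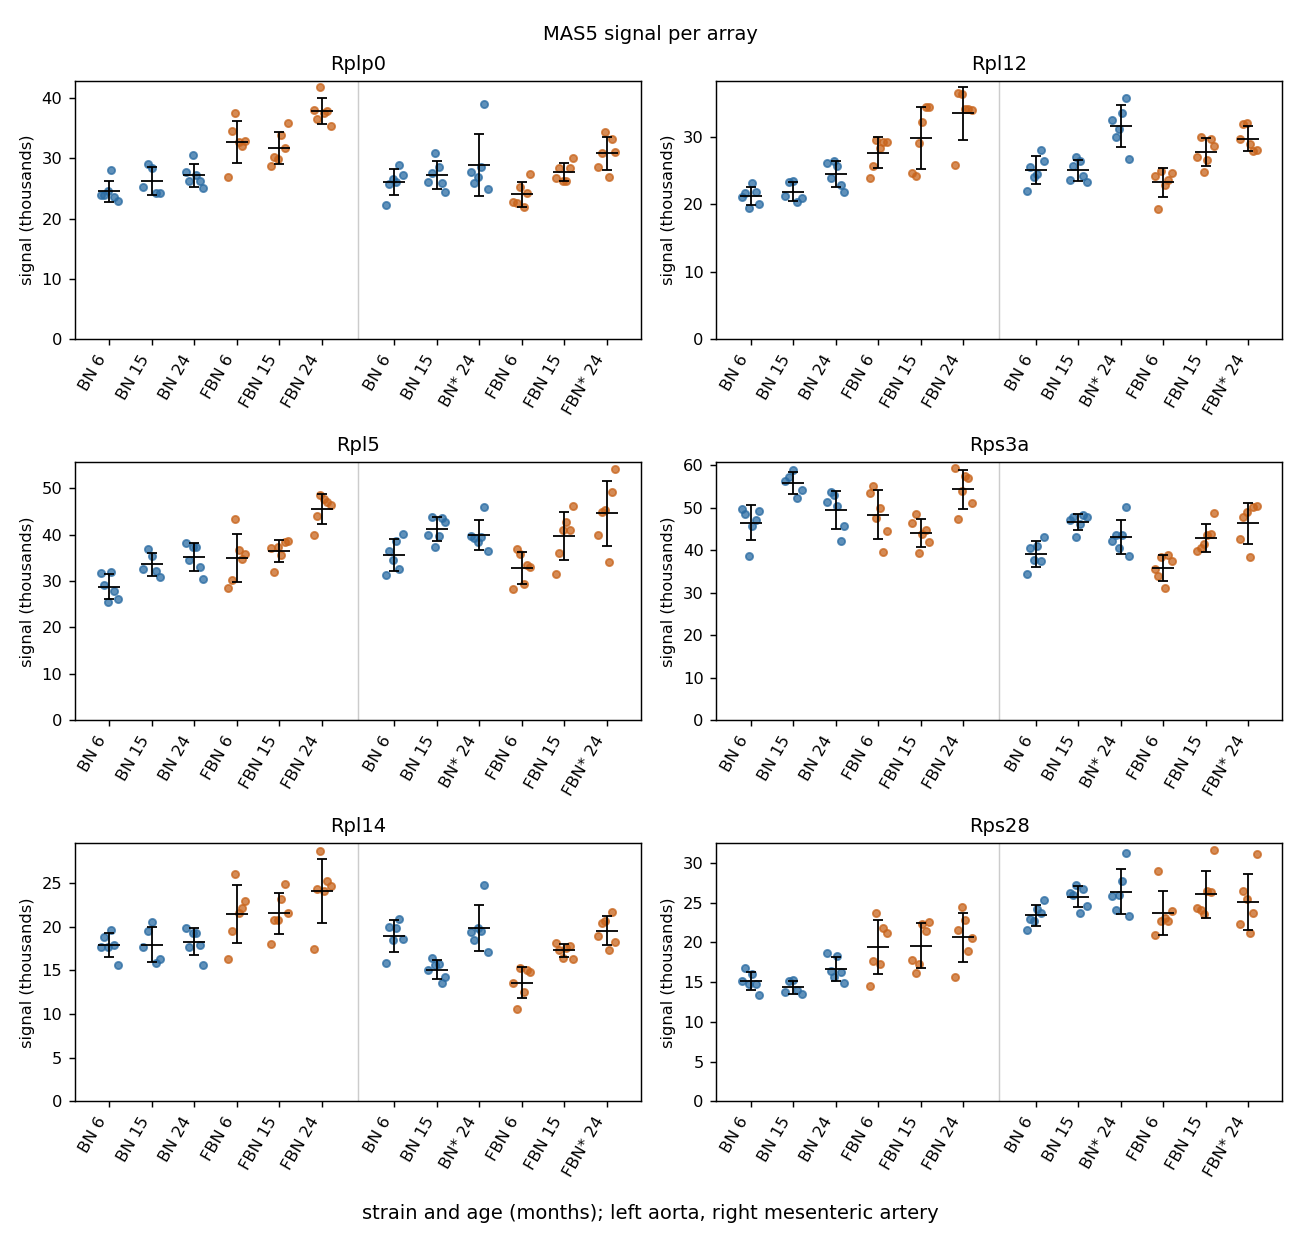
MAS5 signal (linear axis from 0) of 6 members in each array (points; BN blue, FBN orange), by group, with group mean and SD (bars); asterisks mark the 24-month mesenteric groups, whose strain names are as labelled. Rplp0 and Rpl12 are higher in FBN aorta, Rpl5 rises with age in aorta, Rps3a is higher in BN than FBN aorta at 15 months, Rpl14 is lower in FBN than BN mesenteric artery at 6 months, and Rps28 is higher in mesenteric artery than in aorta.

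As deposited, most tested members rose with age in mesenteric artery. Between 6 and 24 months, averaged over the strains, 29 of 42 were higher and 0 lower, against 2.98% and 3.3% of all tested probe sets. The median member difference was 0.245, against 0.0041 over all tested. All 38 bright members had estimates above 0, from 0.12 to 0.36. After quantile normalization 13 were higher and 0 lower (background 2.76% higher), with a median of 0.125. With all arrays quantile-normalized together, the mean bright member level at 6 months was 15.10 ± 0.03 in BN and 14.91 ± 0.12 in FBN. At 24 months it was 15.14 ± 0.10 and 15.12 ± 0.02 in the groups labelled BN and FBN. The several-gene probe sets were higher in 18 of 29 cases.

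Rpl4, a large subunit protein lining the exit tunnel, led them. At 6 months its signals were 19420, 23420 and 24820 (lowest, median, highest) in BN and 13350, 18630 and 21360 in FBN. At 24 months they were 21780, 23850 and 31050 in the group labelled BN and 24040, 27430 and 27750 in that labelled FBN. Both 24-month groups overlapped BN at 6 months and lay wholly above FBN at 6 months. The difference averaged over the strains was 0.36 ± 0.07 (1.29-fold, adjusted p = 0.000944).

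Rpl12 rose by 0.34 ± 0.05 (adjusted p = 5.86e-05), from 21950, 25000 and 28050 in BN and 19250, 23870 and 24950 in FBN at 6 months to 26650, 31810 and 35790 in the group labelled BN and 27890, 29250 and 32000 in that labelled FBN. Of the 24-month arrays, 1 labelled BN and 2 labelled FBN lay within the 6-month BN range, and all 12 lay above the 6-month FBN range. Rps24, a small subunit protein mutated in Diamond-Blackfan anaemia, rose by 0.31 ± 0.05, and Rps9, at the message entry, by 0.33 ± 0.07. Rpl5 and Rpl11, which with the small ribosomal RNA of the large subunit bind the p53 regulator Mdm2 when assembly fails, rose by 0.30 ± 0.07 and 0.33 ± 0.07.

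The dim paralog Rps27l rose by 0.31 ± 0.09 (adjusted p = 0.0406). Its arrays ran from 388.0 to 658.6 over both 6-month groups and from 495.3 to 890.8 over both 24-month groups, which overlap. Rpl7l1 stood at -0.13 ± 0.08 (adjusted p = 0.348), and relative to the mean of the bright members at -0.37 (adjusted p = 0.002). Rpl39 and Rpl37-ps2 were at -0.00162 ± 0.22 and 0.09 ± 0.16, neither called.

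Between 15 and 24 months 3 members rose and 0 fell (background 4.03% and 4.21%), the 3 being near the share of all tested probe sets. Rpl14 rose by 0.28 ± 0.06, Rpl12 by 0.215 ± 0.05 and Rpl24 by 0.215 ± 0.06, with adjusted p of 0.0032, 0.00735 and 0.0183. After quantile normalization 5 rose and 0 fell (background 3.95% and 4.36%). Between 6 and 15 months 0 members were called in FBN (background 0.012% and 0%), although 40 of 42 estimates were above 0, with a median of 0.231 (0.152 after quantile normalization). In 8 members all FBN arrays at 15 months lay above all at 6 months, as did 0.227% of all tested probe sets, and leaving out 1 array in turn gave 0 to 7 called members. In BN the median was 0.131 (-0.0353 after quantile normalization), and 6 rose and 2 fell (background 1.72% and 1.77%). Rps29 rose by 0.43 ± 0.10, Rps15a by 0.39 ± 0.10 and Rpl18 by 0.29 ± 0.06, and Rpl23, Rpl26 and Rps3a by 0.26 to 0.27. Rpl24 fell by 0.375 ± 0.08 and Rpl14 by 0.325 ± 0.09, both of the large subunit. After quantile normalization 1 rose and 2 fell (background 1.65% and 1.59%), and Rpl26 and Rps3a had estimates of -0.0841 and -0.00369. The BN arrays of these ages were also separate in other measures. The ratio of 3′ to 5′ Gapdh signal, which rises with RNA degradation, was 1.18 to 1.81 at 6 months and 1.87 to 2.20 at 15 months. Tissue mass was 6.6 to 11.0 mg and 12.1 to 18.5 mg. With mass as a covariate 0 members rose and 0 fell, with no share of all tested probe sets given for that fit. The part of RNA quality in these changes was not tested.

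Within labelled strains the 24-month rise over 6 months was called for 2 members in the group labelled BN (Rpl12 at 0.33 ± 0.07 and Rpl18 at 0.24 ± 0.06; background 1.4%) and for 29 in that labelled FBN (background 9.11%). The leading members in the latter were Rpl11 (0.66 ± 0.11), Rpl4 (0.62 ± 0.09), Rpl21 (0.53 ± 0.11), Rpl14 (0.53 ± 0.09), Rpl35 (0.49 ± 0.07) and Rpl3 (0.49 ± 0.08). After quantile normalization the counts were 0 for the group labelled BN (background 1.5% higher), and 23 higher and 1 lower, Rpl7l1, for that labelled FBN (background 8.69% and 7.46%). With the 24-month strain labels exchanged the counts were 9 and 20. The 24-month FBN-labelled minus BN-labelled difference was called for 0 of 42 (background 2.32% higher and 2.46% lower). Tissue mass averaged 8.63 ± 1.92 and 8.62 ± 2.78 mg (SD, n = 6 each) in BN and FBN at 6 months and 11.3 ± 1.35 and 14.85 ± 5.31 mg at 24 months. With mass as a covariate 18 members were higher, and with the poly-A controls 35, without a share of all tested probe sets to set beside them. General adipocyte markers moved with age in the same comparison: 0 of 6 tested had estimates above 0, 1 was called lower (Plin1, which coats the lipid droplet, adjusted p = 0.0426), and the median was -0.777 (-0.799 after quantile normalization). Their summed signal ranged from 91340 to 110400 in BN and from 34020 to 105300 in FBN at 6 months, and from 14820 to 107900 and 43470 to 81100 in the groups labelled BN and FBN at 24 months. Of 7 endothelial markers 0 had estimates above 0 and 0 were called, with a median of -0.24. The part of mass and poly-A controls in the age difference was not tested beyond these fits, and that of the cell markers was not tested.

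Among other genes of the translation machinery, calls above the share of all tested probe sets (2.98% higher and 3.3% lower) were seen for those with TOP messages. Of 13 other TOP-message translation genes 7 were higher at 24 than at 6 months and 0 lower, with Eif3f at 0.245 ± 0.05, Eef1g at 0.32 ± 0.07, Eef1d at 0.35 ± 0.08 and the nascent-chain protein Naca at 0.31 ± 0.07. After quantile normalization 4 of 13 were higher. Rack1, a small subunit scaffold outside the symbol rule, was at 0.215 ± 0.06 (adjusted p = 0.0181) and was not called after quantile normalization (0.158, adjusted p = 0.0886). Of 27 biogenesis genes 1 was higher, Ebna1bp2 at 0.26 ± 0.08, and 0 of 14 mTOR and TOP control genes were called. Mitochondrial ribosomal proteins were called higher in 1 case (Mrpl52) and lower in 1 (Mrps12) of 73, with a median of 0.06.

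Some members also rose with age in aorta. From 6 to 24 months, averaged over the strains, 11 members were higher and 0 lower (background 3.28% and 1.54%), with a median of 0.17 against 0.03 over all tested. Macrophage markers moved with age in the same comparison: all 9 had estimates above 0, 3 were called higher (Cd163, Fcer1g and Aif1), and the median was 0.584 (0.557 after quantile normalization). Their summed signal ranged from 12730 to 20570 in BN and 8370 to 25150 in FBN at 6 months, and from 15710 to 29730 and 17050 to 27070 at 24 months. Of 7 endothelial markers 2 were called higher (median 0.217), and all 8 smooth muscle markers had estimates above 0 with 0 called (median 0.264). The part of these cell types in the age difference was not tested.

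Rpl5 led the members. In BN aorta its signals were 25510, 28530 and 32000 (lowest, median, highest) at 6 months and 30330, 35920 and 38220 at 24 months, and in FBN aorta 28570, 35320 and 43360, then 39870, 46630 and 48540. The ages overlapped in both strains, and the difference was 0.34 ± 0.07 (1.27-fold, adjusted p = 0.00164). It was also the only member of the 42 that rose relative to the mean of the bright members (0.17, adjusted p = 0.0296).

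Rps24 rose by 0.28 ± 0.06, Rpl23 by 0.27 ± 0.07, Rpl12 by 0.24 ± 0.07, and Rpl3, at the peptidyl transferase centre, by 0.225 ± 0.05 (adjusted p = 0.00657, 0.0183, 0.0362 and 0.012). Rpl4 rose by 0.22 ± 0.06, Rps6, the target of the S6 kinases, by 0.20 ± 0.04 and Rpl22 by 0.185 ± 0.05. After quantile normalization 3 members were called (Rpl5, Rps9 and Rpl22, all higher; background 2.78% higher and 1.76% lower), with a median of 0.18. Within strains 0 members were called in BN (median 0.11; background 0.67% higher and 0.586% lower) and 3 in FBN (Rpl5 at 0.39 ± 0.09, Rps24 at 0.35 ± 0.09 and Rpl3 at 0.29 ± 0.08; median 0.21; background 0.742%). From 6 to 15 months 0 members were called in BN aorta (background 0.215% higher and 0.449% lower) or FBN aorta (0.00598% and 0%). From 15 to 24 months 0 were called in BN (0.185% and 0.0658%) or FBN (0.012% and 0.197%). In FBN 40 of 42 estimates of this later step were above 0, with a median of 0.205 (0.0526 after quantile normalization), and in 10 members the 24-month arrays all lay above the 15-month arrays (0.329% of all tested probe sets). In BN the median was 0.0422 (0.138 after quantile normalization).

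The vessels were compared directly in their change from 6 to 24 months. The mesenteric minus aorta difference of this change was called for 0 of 42 members as deposited (background 0.293% and 0.826%) and for 0 after quantile normalization (0.341% and 0.879%). Its direction depended on the scaling: the median was 0.06 with 37 of 42 estimates above 0 as deposited, and -0.0625 with 8 of 42 above 0 after quantile normalization.

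In mesenteric artery at 6 months 9 of 42 members were lower in FBN and 0 higher (background 5.73% and 5.06%), with a median of -0.12 against -0.02 over all tested. The 9 encode large subunit proteins. Over the 26 bright genes of the large subunit the median was -0.138 with 6 estimates above 0, and over the 12 of the small subunit, none of them called, it was -0.0862 with 3 above 0. The difference between the subunits was not tested. After quantile normalization 16 were lower and 0 higher (background 5.65% lower). At 15 months 0 members were called (background 1.72% and 1.4%), with a median of -0.01.

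Rpl14 of the large subunit read 15820, 19220 and 20940 (lowest, median, highest) in BN mesenteric artery and 10560, 14170 and 15240 in FBN. The groups did not overlap, and the difference was -0.48 ± 0.09 (adjusted p = 0.00025). At 15 months Rpl14 read 13530, 15320 and 16460 in BN and 16360, 17480 and 18180 in FBN, with the lowest FBN array inside the BN range and FBN above BN by 0.20 ± 0.09 (adjusted p = 0.239).

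Rpl24, which bridges the subunits, read 17910, 20600 and 23280 in BN and 12390, 16630 and 17270 in FBN at 6 months, also without overlap (-0.40 ± 0.08, adjusted p = 0.00163). At 15 months Rpl24 read 13470, 16460 and 17640 in BN and 17880, 18870 and 20870 in FBN, separate in the other direction (0.26 ± 0.08, adjusted p = 0.0802). Rpl21 read 16810, 20900 and 23270 in BN and 12170, 13360 and 17340 in FBN, with 1 BN array inside the FBN range (-0.56 ± 0.11, adjusted p = 0.00152). Rpl11 was at -0.41 ± 0.11, Rpl4 at -0.38 ± 0.09 and Rpl34 at -0.31 ± 0.09. Relative to the mean of the bright members, Rpl14, Rpl21 and Rpl24 stood at -0.36, -0.43 and -0.28, while Rps29 and Rps15a stood at 0.33 and 0.315 (adjusted p = 0.00166, 0.00189, 0.013, 0.005 and 0.0151).

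The difference between the vessels was tested directly, in a comparison added after the data were seen. At 6 months the FBN minus BN difference was lower in mesenteric artery than in aorta for 22 of 42 members and higher for 0 (background 1.53% and 1.84%), with a median of -0.36 against -0.06. Rpl14 differed by -0.73 ± 0.14, Rpl4 by -0.645 ± 0.12, Rpl21 by -0.62 ± 0.16, Rps3 by -0.61 ± 0.15, Rpl34 by -0.58 ± 0.13 and Rplp0 by -0.54 ± 0.11. Rplp0 read 22350, 26350 and 28830 in BN mesenteric artery and 21940, 23490 and 27390 in FBN, and these ranges overlapped. At 15 months 3 members were lower and 0 higher in this test (background 4.43% and 6.58%), the 3 being near the background. After quantile normalization 20 were lower (background 4.4%).

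The FBN mesenteric arrays at 6 months also differed from the BN arrays of that age in RNA measures. Their poly-A control signal was 11.47 ± 1.06 against 9.44 ± 0.65 in BN, and the ratio of 3′ to 5′ Gapdh signal, which rises with RNA degradation, was 2.09 ± 0.88 against 1.52 ± 0.23 (n = 6 each). The Gapdh ratio had a median of 1.77 in FBN and reached 3.76 in replicate 2. Other mesenteric groups were similar in 1 of these measures but not in both. At 15 months the Gapdh ratio was 2.01 ± 0.14 in BN and 1.62 ± 0.35 in FBN. The poly-A control signal was 10.6 ± 0.58 and 11.19 ± 0.90. Summed brown adipocyte markers were low in both strains at 6 months (2393 to 4502 in FBN and 4372 to 5289 in BN). With the poly-A controls as a covariate 4 members were lower in FBN at 6 months, a count without a share of all tested probe sets beside it. Of 9 macrophage markers 0 had estimates above 0 and 0 were called (median -0.516), and of 6 general adipocyte markers the same held (median -0.395). The part of RNA quality and of these cell types was not tested.

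The other gene lists are read against the 5.06% of all tested probe sets called higher and the 5.73% called lower in FBN at 6 months. Of 13 other TOP-message genes 2 were lower and 0 higher: Eef1d and Eef1b2, subunits of the elongation factor exchange complex (-0.385 ± 0.11 and -0.335 ± 0.10). Of 27 biogenesis genes 2 were lower and 0 higher, a share near the background: Fbl and Ncl of the nucleolus (-0.48 ± 0.08 and -0.46 ± 0.12). Of 14 genes of mTOR and TOP control 2 were higher and 0 lower: Larp1 (1.21 ± 0.21) and the translation repressor Eif4ebp2 (0.33 ± 0.10). Of 73 mitochondrial ribosomal proteins 6 were lower and 0 higher. Rack1 was lower (-0.31 ± 0.08).

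**Figure D4:**
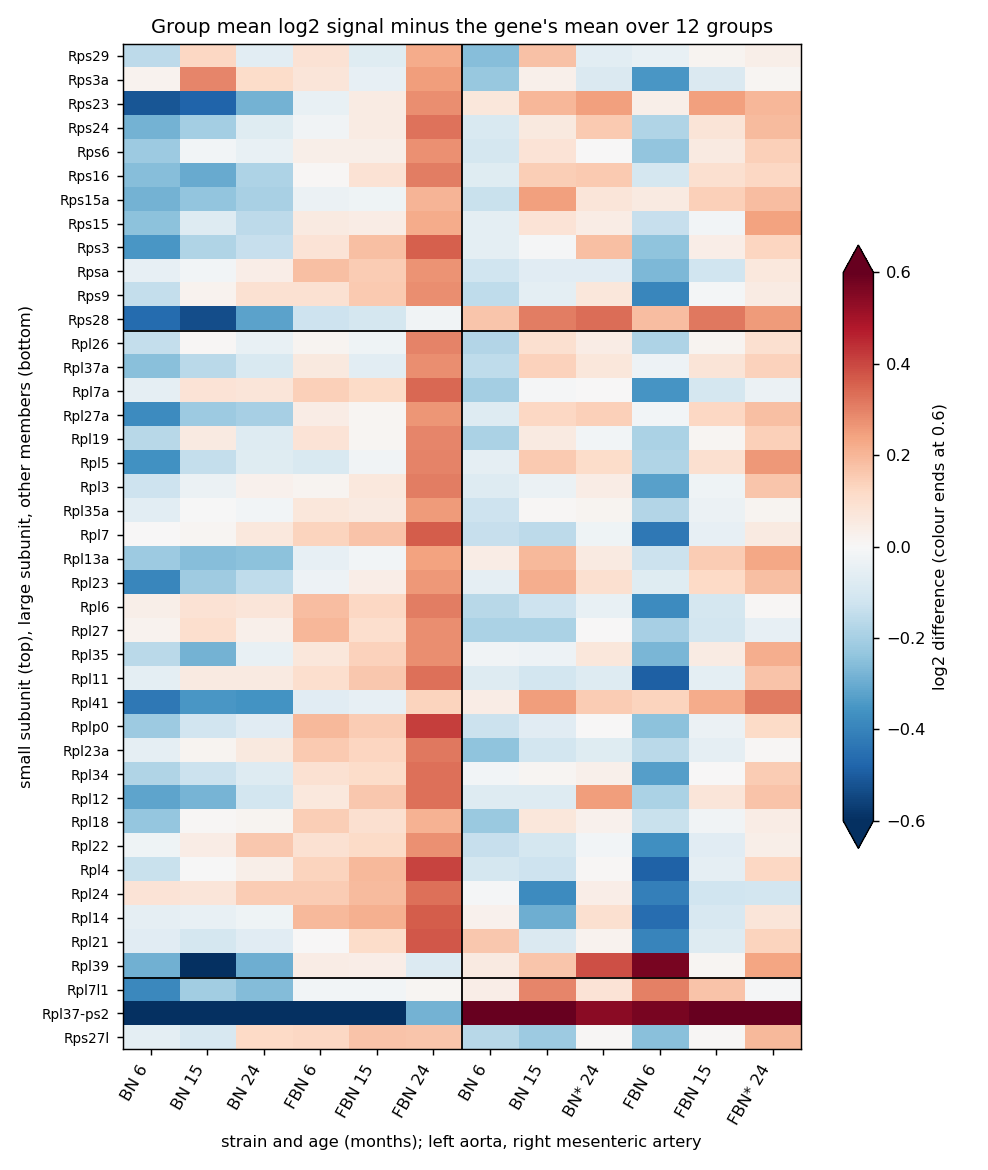
Group mean log2 signal of each tested member (rows, small subunit above large subunit above other members) minus that member's mean over the 12 groups (columns); colours end at 0.6 in each direction. Most members are above their mean in FBN aorta at 24 months and below it in BN aorta and FBN mesenteric artery at 6 months. Rpl37-ps2 is below its mean in every aorta group and above it in every mesenteric group.

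Between vessels the direction of the family depended on the scaling. Averaged over the 6 strain and age groups, 13 members were higher in mesenteric artery and 18 lower as deposited (background 49% and 34.7%), and 39 higher and 1 lower after quantile normalization (background 45.4% and 38%). The member medians were -0.05 and 0.27, against 0.12 and 0.06 over all tested. The 99th percentile of signal, near which these genes lie, was 23590 ± 780 in BN aorta and 17100 ± 502 in BN mesenteric artery at 6 months. Rpl24 and Rpl6 were lower as deposited (-0.33 ± 0.03 and -0.27 ± 0.03) and at 0.02 and 0.09 after quantile normalization.

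Some members were higher in mesenteric artery under both scalings. As deposited, the 13 of 42 called higher were a smaller share than the 49% of all tested probe sets. After quantile normalization 39 of 42 were called higher, against 45.4%. Rps28, a small subunit protein at the message exit, read 13410, 15010 and 16740 in BN aorta at 6 months and 21580, 23360 and 25300 in BN mesenteric artery, and 14580, 19440 and 23750 against 20900, 22890 and 29020 in FBN. The vessels were separate in BN and overlapped in FBN, and the averaged difference was 0.52 ± 0.04 (quantile-normalized 0.82). Rpl41 and Rps23 followed at 0.37 ± 0.04 and 0.33 ± 0.05. The pseudogene Rpl37-ps2 differed most, at 1.47 ± 0.11: its BN signals at 6 months were 364.8, 470.4 and 649.0 in aorta and 889.1, 1351 and 1540 in mesenteric artery. Rpl39, which narrows the exit tunnel, was at 0.47 ± 0.15. Rps27l was lower under both scalings (-0.14 ± 0.05 and -0.26).

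**Figure D5:**
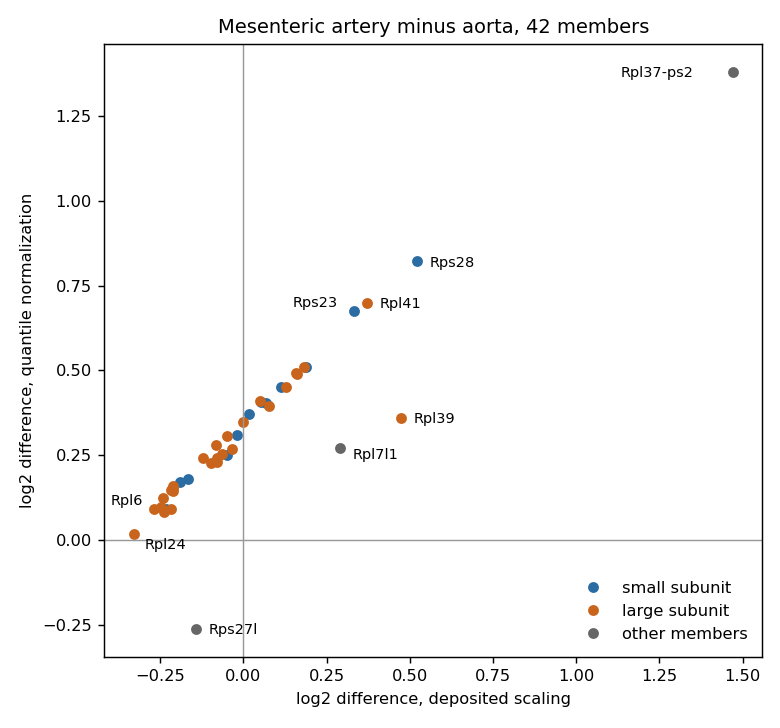
Mesenteric artery minus aorta log2 difference of each tested member, averaged over 6 strain and age groups, as deposited (x axis) and after quantile normalization (y axis). Most points lie above 0 on the y axis and straddle 0 on the x axis; Rpl37-ps2, Rps28 and Rpl41 are above 0 on both and Rps27l is below 0 on both.

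Within each strain at 6 months the deposited counts were 13 higher and 4 lower in BN (background 41.5% and 25.9%) and 3 higher and 27 lower in FBN (background 31.7% and 23.5%). Quantile normalization gave 40 higher and 1 lower in BN, and 11 higher and 4 lower in FBN (background 37.5% and 29.6%, then 27.9% and 26.3%). Probe sets of 1 gene differed in sign in the vessel average for Rpl7l1 (0.29 and -0.27) and Rpsa (-0.19, 0.23 and -0.135), all called, so for these the direction rests on the probe set chosen. Both probe sets of Rpl3 were lower in mesenteric artery (-0.08 and -0.37).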

How the data were processed

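The files hold 1 intensity per probe set and array. Per the submitters' processing notes these were made with GCOS and MAS5, with versions not given in the sources used here. The deposited intensity values have a trimmed mean of 1000.28 to 1000.43 in every array (2% trimmed at each end), which is a common scaling target. Total RNA came from weighed vessels, per the labels' protocols.

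Log2 intensities of 31042 probe sets (57 controls left out) were used without an offset. Probe sets with a mean log2 of at least 8.19 (signal 292.4, the median probe set) in either vessel, 16717 in all, entered a linear model in limma (version 3.58.1 under R 4.3.3, with statmod 1.5.0), using eBayes with trend and robust settings, with 1 mean per group in each vessel, or over all 71 arrays for comparisons between vessels. Benjamini-Hochberg adjustment ran over all 16717, and a probe set was called at an adjusted p under 0.05. There were 27 planned comparisons and 2 added after the data were seen; vessel differences at 15 and 24 months were fitted but are not described. The fit was tested on simulated data. Quantile normalization ran over the arrays of each fit for calls, and over all 71 arrays for the mean member levels.

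The members, gene lists and rules were chosen with earlier results of these data known. The genes named are, for each comparison, up to 6 called members with the largest rise and fall, members with a listed role, the brightest, paralogs, members whose probe sets disagree, and up to 4 called genes of each other list. Values relative to the family are from a fit of arrays centred on the mean of the bright members, chosen after the data were seen. Alternatives were quantile normalization, an offset before log2, other filters, other fits, array weights, tissue mass or poly-A controls as covariates, every probe set of a gene, exchanged 24-month mesenteric labels and each array left out; the brown adipocyte covariate and the several-gene probe sets were added after the data were seen. Of the 50 members, 48 had a current gene record, and 0 symbols had changed. Signal has no count behind it, and the number of arrays limits the precision.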

Additional observations from a re-analysis of the deposited data

Results flagged for a closer look

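The 13 genes shown per array and the mean member level were checked in the 12 groups, 168 checks in all, for a single array standing apart from the rest of its group; chance alone gives about 1 in 20. It was seen 13 times, and 0 times for the mean member level. In the 24-month mesenteric group labelled BN, replicate 5 was high for 4 genes: Rplp0 at 39020 (others 24940 to 28590), Rpl5 at 45940 (36550 to 39700), Rpl4 at 31050 (21780 to 25240) and Rpl14 at 24780 (17140 to 19840). In BN aorta at 6 months, replicate 4 was high for Rplp0 at 28070 (22980 to 24570) and Rpl24 at 25370 (20340 to 22010), and replicate 3 was low for Rps3a at 38540 (45620 to 49600).

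The others were Rpl12 at 25890 in FBN aorta replicate 1 at 24 months (33920 to 36480) and at 19250 in FBN mesenteric replicate 2 at 6 months (22890 to 24950), Rpl18 at 29870 in BN aorta replicate 3 at 15 months (25190 to 26300), Rpl11 at 22900 in FBN aorta replicate 5 at 6 months (31190 to 34740), Rps28 at 31560 in FBN mesenteric replicate 6 at 15 months (23520 to 26460), and Rpl37-ps2 at 282.9 in BN aorta replicate 6 at 24 months (451.7 to 530.8).

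The strain difference itself differed between vessels at 6 months. It was lower in mesenteric artery for 22 of 42 members, against 1.53% of all tested probe sets. Rpl14 was at -0.732, Rpl4 at -0.645, Rpl21 at -0.623, Rps3 at -0.613, Rpl34 at -0.583 and Rplp0 at -0.536. At 15 months it was lower for 3 of 42, near the share of all tested probe sets (4.43%).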

How the results depend on the processing

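Some called members passed under every alternative run: Rplp0 and Rpl18 for the strain difference in aorta at 6 months, Rpl12 at 15 months, Rpl5 for age in aorta, 9 of the 29 for age in mesenteric artery (Rpl12, Rpl14, Rpl22, Rpl26, Rpl35, Rpl4, Rps15, Rps24 and Rps9), Rpl14, Rpl21 and Rpl24 for the strain difference in mesenteric artery at 6 months, and 6 of 31 for the vessel average. For the strain difference in aorta at 24 months this held for 0 of 29. Adding an offset before log2, or counting every probe set of a gene, moved none of the counts by over 1.5 times. No paired analysis was possible because the labels give no replicate numbers shared by the groups. The counts below are of members called higher unless stated, and the cause of each move was not tested. For alternatives other than quantile normalization no share of all tested probe sets is given. A move of those counts may therefore be shared by all probe sets and is not read as a result about the members. The number of arrays and the closeness of many estimates to the threshold limit all counts.

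With quantile normalization the counts were 3 for age in aorta, 0 in FBN aorta alone, 31 (0 lower) and 15 for the aorta strain difference at 15 and 24 months, 13 for age in mesenteric artery, 5 from 15 to 24 months there, 1 from 6 to 15 months in BN mesenteric artery, 0 for the BN-labelled 24-month rise and 1 lower for the FBN-labelled. They were 16 lower and 1 higher for the mesenteric strain difference at 6 and 15 months, 20 lower for the vessel dependence of strain at 15 months, 40 (1 lower), 11 (4 lower) and 39 (1 lower) for the vessel difference in BN at 6 months, in FBN at 6 months and on average. The sign turned for Rpl26 (-0.0841) and Rps3a (-0.00369) from 6 to 15 months in BN mesenteric artery and for Rpl24 (0.0173) and Rpl6 (0.0922) in the vessel average.

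With the poly-A controls as covariate the counts were 1 and 0 for age in BN and FBN aorta, 2, 15 (2 lower) and 0 for the aorta strain difference at 6, 15 and 24 months, 7 from 15 to 24 months in mesenteric artery, 2 (1 lower) and 1 from 6 to 15 months in BN and FBN there, 4 lower, 1 (1 lower) and 6 for the mesenteric strain difference at 6, 15 and 24 months, 11 lower for its vessel dependence at 15 months, and 1 and 7 for the vessel difference in FBN at 6 months and on average. With tissue mass they were 1 and 6 for age in BN and FBN aorta, 2 from 6 to 15 months in BN aorta, 1 from 15 to 24 months in FBN aorta, 12 and 1 (0 lower) for the aorta strain difference at 6 and 15 months, 18 for age in mesenteric artery, 0 (0 lower) from 6 to 15 months in BN there, 0 lower for the vessel dependence of strain at 15 months, and 6 (2 lower) and 7 for the vessel difference in BN at 6 months and on average. With the brown adipocyte level, chosen after the data were seen, they were 17, 2 and 7 for age in aorta, BN aorta and FBN aorta, 4 from 6 to 15 months in BN aorta, 5 from 15 to 24 months in FBN aorta, and 10 and 1 (0 lower) for the aorta strain difference at 6 and 15 months.

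With array weights the counts were 7 and 5 for BN aorta from 6 to 24 and 6 to 15 months, 1 lower from 15 to 24 months, 9 for FBN aorta from 15 to 24 months, 31 and 22 (2 lower) for the aorta strain difference at 6 and 15 months, 13 for BN mesenteric artery from 6 to 15 months, 1 and 1 for the mesenteric strain difference at 15 and 24 months, 1 lower each for mesenteric artery from 15 to 24 months and the FBN-labelled 24-month rise, and 1 higher and 16 lower for the vessel dependence of strain at 15 months. In 1 fit of 71 arrays they were 1 and 6 for age in BN and FBN aorta, 1 from 6 to 15 months in BN, 2 from 15 to 24 months in FBN, 13 for the aorta strain difference at 15 months, 5 from 6 to 15 months in FBN mesenteric artery and 1 lower in BN. With each strain and vessel fitted alone they were 3 and 0 for age in BN and FBN aorta, 1 from 6 to 15 months in BN aorta and 1 for the BN-labelled mesenteric rise. Without trend and robust settings they were 5 and 1 for FBN aorta from 6 and from 15 to 24 months.

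Without a filter the counts were 5 for age in aorta, 0 in FBN aorta, 10 and 3 for the aorta strain difference at 6 and 15 months, 3 from 6 to 15 months in BN mesenteric artery, and 14 and 1 lower for the vessel dependence of strain at 6 and 15 months. With the stricter filter they were 1 and 5 for age in BN and FBN aorta, 1 from 15 to 24 months in FBN aorta, 2 lower for the aorta strain difference at 15 months, 2 from 6 to 15 months in FBN mesenteric artery and 1 lower for the FBN-labelled rise. Over the several-gene probe sets, chosen after the data were seen, they were 6 for age in aorta, 1 in FBN aorta, 12 and (lower) 0 for the aorta strain difference at 6 and 15 months, 18 for age in mesenteric artery, 0 (0 lower) from 6 to 15 months in BN there, 0 and 18 for the BN- and FBN-labelled rise, 8 lower for the vessel dependence of strain at 6 months, and 6, 1 and 5 for the vessel difference in BN at 6 months, FBN at 6 months and on average. With the 24-month labels exchanged the BN-labelled rise gave 9.

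Leaving out 1 array in turn gave 8 to 28, 2 to 15 (1 to 2 lower) and 21 to 34 for the aorta strain difference at 6, 15 and 24 months, 7 to 15 for age in aorta, 0 to 9 in FBN aorta and 0 to 2 there from 15 to 24 months, 26 to 32 for age in mesenteric artery, and 0 to 1 lower there from 15 to 24 months. It gave 2 to 7 (1 to 2 lower) and 0 to 7 from 6 to 15 months in BN and FBN mesenteric artery, 2 to 4 and 25 to 32 (0 to 1 lower) for the BN- and FBN-labelled rise, 5 to 12 lower and 0 to 3 for the mesenteric strain difference at 6 and 24 months, and 11 to 26 and 0 to 8 lower for the vessel dependence of strain at 6 and 15 months. For the aorta strain difference at 6 months the count was 8, 13 and 10 without FBN replicates 3, 5 and 6 and 10, 9 and 10 without BN replicates 3, 5 and 6. At 15 months it was 15 without FBN replicate 2, 3 or 4 without any of FBN replicates 3 to 6, 4 without BN replicate 1 and 2 without BN replicate 4 or 5. Age in aorta gave 7 without FBN replicate 4 or BN replicate 1 or 4 at 24 months, or BN replicate 3 or 6 at 6 months. In FBN aorta it gave 0 or 1 without 6-month replicates 1, 2, 4 or 5 or 24-month replicates 2 to 6, 6 without 6-month replicate 3 and 9 without 24-month replicate 1. The mesenteric strain difference at 6 months gave 5 lower without FBN replicate 2 or 4. Its vessel dependence at 6 months gave 13 lower without FBN mesenteric replicate 4 or BN aorta replicate 6, and 11 and 12 without FBN aorta replicates 3 and 6; at 15 months, from a count of 3, 16 arrays moved it.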
